A study of Mus musculus with 12 samples.

Results

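The effect of a high-fat diet (HFD) on gene expression in the arcuate nucleus (ARC) of female mice was taken as the mean of the diet effects within control and within mutant animals. All 12 of the 12 libraries of the series entered it, 5 from HFD and 7 from standard chow. Of 16640 genes in the table, 15801 had a signal of at least 1 in at least 2 libraries and were tested. Among these, 118 were shared diet genes, defined here as genes in which every HFD library lay on one side of every chow library within each genotype, on the same side in both, with an unadjusted p under 0.05 for the mean diet effect.

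Every animal was female, 27 weeks old and homozygous for a loxP-flanked Esr1 allele (Esr1 fl/fl) on a mixed CD-1;129P2 background, so the allele was carried by controls too. Control animals (label Ctrl) had no Cre recombinase. Mutant animals (label NkxCre) also carried Nkx2-1-Cre, which deletes the oestrogen receptor alpha gene Esr1 in every cell with a history of Nkx2-1 expression and not in the ARC alone. Chow throughout gave 3 control and 4 mutant libraries, and HFD for 17 weeks gave 2 control and 3 mutant libraries. Bulk RNA sequencing of microdissected ARC asked which transcripts changed with the diet in these females. No source used here says that 1 library is 1 animal, so p-values measure only the spread between these libraries.

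Esr1 itself checked the genotype labels. Its signal was 17.8, 7.29 and 19.8 in control chow, 15.3 and 22.4 in control HFD, 6.05, 3.15, 1.93 and 1.65 in mutant chow and 10.7, 16.6 and 11.9 in the libraries labelled mutant HFD. The mutant chow libraries were low as their label states, and the 3 libraries labelled mutant HFD lay inside the control range, which goes against theirs. They are called by their label throughout, and every mutant diet effect, and so every mean diet effect, rests on that label. Esr1 was also among the genes with a higher signal on HFD, with a mean log2 difference of 1.12 ± 0.32 (SE), 0.40 in controls and 1.84 in mutants.

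The ARC sits at the base of the hypothalamus beside the third ventricle and holds the neurons that sense leptin, insulin and nutrients. Agrp and Npy mark its hunger-promoting neurons and Pomc its satiety-promoting neurons. Tanycytes, the glial cells that line the ventricle, carry hormones and nutrients into it, and microglia are its resident immune cells. Long-term fat feeding in rodents is known for effects on all of these cells.

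All 13 neuronal markers of the ARC were above 0 in every library, with summed signals from 2302 to 6741 in control HFD and from 4402 to 8468 in mutant chow. Column sums ran from 922172 to 1254999. In the chow groups 2 libraries stood apart, since control chow replicate 2 had the largest sum, with 34.6% of it in its top 100 genes, and mutant chow replicate 3 had 1768 genes listed at 0. Pituitary markers summed to 564 to 6054 in control chow and 129.8 to 1491 in control HFD. Markers of neighbouring nuclei differed too. Suprachiasmatic sums were 118 to 363 in control chow, 224 to 261 in control HFD, 99.7 to 3074 in mutant chow and 700 to 2581 in mutant HFD. Paraventricular and lateral hypothalamic sums were 150 to 859, 196 to 358, 197 to 1868 and 813 to 1168 in the same order. Choroid plexus markers reached a sum of 2175 in control HFD replicate 1 against at most 74.4 elsewhere. Of the 12 libraries, this one also had the lowest sums for ARC neurons (2302), tanycytes (359) and pituitary (129.8). Its sums for neurons in general (2007) and for thalamus and cortex (107) were the highest. The part of these libraries and cells in the results was not tested beyond leaving libraries out.

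No gene passed an adjusted p of 0.05 for the mean diet effect (limma with Benjamini-Hochberg adjustment over 15801 genes). The lowest adjusted p was 0.428. At an unadjusted p under 0.05 there were 836 genes (5.29% of those tested), which is close to the share the threshold itself admits, 583 (3.69%) of them lower and 253 (1.6%) higher on HFD. Lower genes made up 69.7% of the 836, and 57.0% after quantile normalisation or 59.0% after rescaling each column to the same sum, so the excess of lower genes depended on the scaling. Within controls 0 genes passed the adjusted threshold and 560 (3.54%) the unadjusted one. Within mutants 3 (0.019%) passed the adjusted threshold and 849 (5.37%) the unadjusted one. Those 3 were Ccn3, Fst and the predicted gene Gm10563, all lower on HFD, with log2 differences of -3.51, -3.02 and -5.56 in mutants and 0.05, 0.07 and 0.34 in controls, in that order. The interaction of genotype and diet passed the adjusted threshold for 0 genes, these 3 included, with 543 (3.44%) at an unadjusted p under 0.05.

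Across the 15801 genes the diet effects of the 2 genotypes, which share no library, were almost unrelated, with Pearson's r of 0.077 and Spearman's rho of 0.107 as a description across genes that are not independent. By sign alone, 8459 genes (53.5%) had a mean below 0, 4616 (29.2%) were lower in both genotypes and 3995 (25.3%) higher in both. Within 1 genotype, no overlap in either direction was common, at 2224 genes (14.1%) in controls and 1263 (7.99%) in mutants. No overlap between diets in both genotypes occurred in 130 genes (0.823%) that differed in the same direction, 89 lower (0.563%) and 41 higher (0.259%), and in 62 (0.392%) that differed in opposite directions. Of the 130, 12 missed the p threshold, which left the 118 shared genes (0.747%), 81 lower (0.513%) and 37 higher (0.234%). The last one inside was 4931406C07Rik with an unadjusted p of 0.0424, and the first one outside was Zfp384 with 0.055. Lower genes were 68.6% of the shared genes, 51.8% after quantile normalisation and 60.9% after rescaling, and 72 of the 118 were shared genes under each of these scalings. The 118 had absolute mean log2 differences of 0.26 to 2.73 with a median of 0.72, 111 were protein coding, and only 1, Nr4a2, had an interaction with an unadjusted p under 0.05. They were picked on these same values, so the sizes given for them are descriptions.

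**Figure D1:**
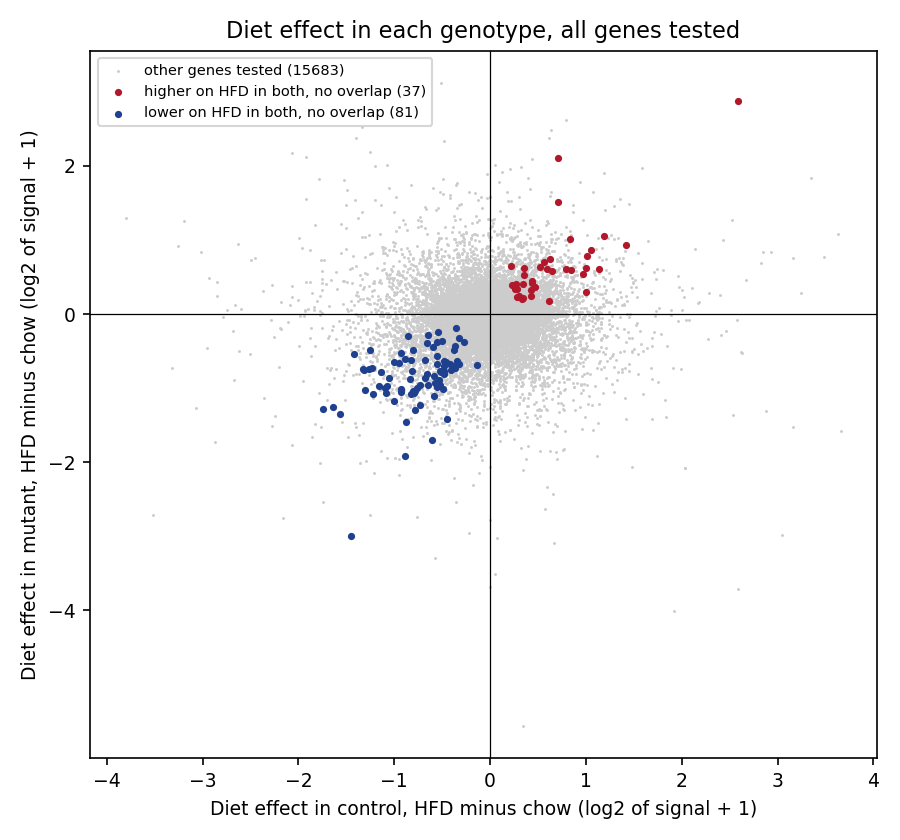
Diet effect (HFD minus chow, log2 of signal + 1) in control libraries on the horizontal axis and in mutant libraries on the vertical axis, 1 point per gene for 15801 genes. Most genes form a round cloud with Pearson's r of 0.077, while the 81 shared lower genes (blue) lie in the lower left and the 37 shared higher genes (red) in the upper right, by the way they were chosen.

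Among shared genes lower on HFD, those with the smallest p encoded a lipid synthesis enzyme, a complement component, a cell cycle regulator and a vessel growth factor. Chka, the choline kinase that starts phosphatidylcholine synthesis (chr19:3851773-3894369, plus strand), had a signal of 90.9, 97.7 and 84.8 in control chow, 42.7 and 47.2 in control HFD, 131, 97.3, 70.2 and 117 in mutant chow and 59.1, 70.2 and 64.8 in the libraries labelled mutant HFD. Both control HFD libraries were below 48 and all 3 control chow libraries above 84, while in mutants the highest HFD and the lowest chow library met near 70 without crossing. Its mean log2 difference was -0.82 ± 0.15 (SE), with an unadjusted p of 0.000142 and an adjusted p of 0.428 (limma, Benjamini-Hochberg). C4b, which encodes complement component C4 and is a marker of reactive astrocytes (chr17:34728380-34743882, minus strand), measured 83, 174 and 84.5 in control chow, 60.03 and 60.1 in control HFD, 113, 140.2, 118 and 141 in mutant chow and 66.4, 61.3 and 51.9 in the libraries labelled mutant HFD. All 5 HFD libraries lay below all 7 chow libraries, as in 40 genes of all those tested (0.253%), and control chow replicate 2 was well above the other 2 of its group. The log2 difference was -0.95 ± 0.18 (SE), -0.82 in controls and -1.08 in mutants, and it ran from -1.04 to -0.78 over 26 alternative analyses. C4b has a near-identical paralog, so its reads may be split.

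Vegfa, the main growth factor of blood vessels (chr17:46016993-46032369, minus strand), gave 76.2, 110.3 and 104 in control chow, 69.8 and 58.8 in control HFD, 116, 126, 150.1 and 109.5 in mutant chow and 53.7, 79.8 and 64.3 in the libraries labelled mutant HFD. Groups did not overlap within a genotype, although 1 mutant HFD library was above the lowest control chow library. The log2 difference was -0.75 ± 0.15 (SE). Vgf, a neuropeptide precursor that neurons induce with activity and growth factors (chr5:137026392-137033351, plus strand), was at 705, 628 and 495 in control chow, 455 and 411 in control HFD, 640.1, 829.8, 874 and 743 in mutant chow and 379, 519 and 423 in the libraries labelled mutant HFD. Control HFD libraries sat just under the lowest control chow library, and the mutant groups were further apart. Its log2 difference was -0.65 ± 0.14 (SE).

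**Figure D2:**
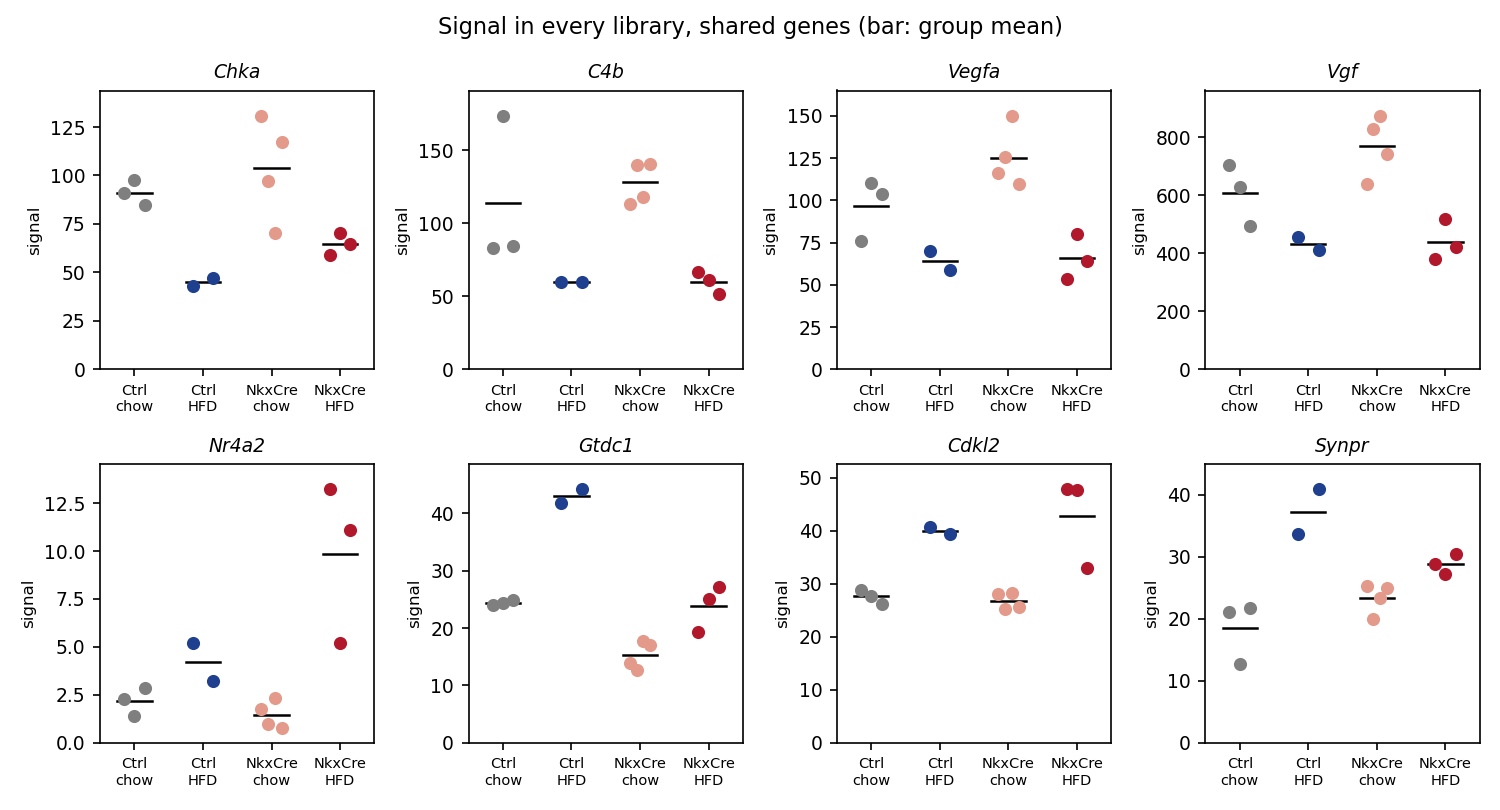
Signal (vertical axis, linear from 0) in each of the 12 libraries, 1 point per library, in control chow, control HFD, mutant chow and mutant HFD by label, with a bar at the group mean. Chka, C4b, Vegfa and Vgf are lower and Nr4a2, Gtdc1, Cdkl2 and Synpr higher on HFD, with no overlap of diets within a genotype. C4b on HFD stays at or under 66.4, and every chow library is at 83.0 or more.

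Next among the leading lower genes were Sertad1, Ezh2, Pclaf and Cntrl. Sertad1, a regulator of CDK4 and E2F activity (chr7:27486910-27490316, plus strand), read 16.9, 40.2 and 30.3 in control chow, 8.17 and 8.09 in control HFD, 13.9, 14, 11.4 and 18.5 in mutant chow and 8.0, 7.06 and 2.57 in the libraries labelled mutant HFD, with every HFD library under every chow library and a log2 difference of -1.45 ± 0.28 (SE). Ezh2, the histone methyltransferase of Polycomb complex 2, read 16.5, 21.3 and 29.1 in control chow, 9.51 and 7.04 in control HFD, 16.4, 17, 39.4 and 15 in mutant chow and 11.1, 9.36 and 7.95 in the libraries labelled mutant HFD, also with no overlap of the 5 and the 7, and a difference of -1.17 ± 0.26 (SE). Pclaf, a PCNA-binding factor of DNA synthesis, was at 2.64, 2.23 and 3.79 in control chow, 0.411 and 0.192 in control HFD, 1.95, 4.35, 7.43 and 3.54 in mutant chow and 1.03, 0.634 and 1.22 in the libraries labelled mutant HFD. These low levels differed by -1.46 ± 0.29 (SE) on the log2 scale, and Pclaf overlaps Trip4 on the opposite strand. Cntrl, a centrosome protein, differed by -1.02 ± 0.21 (SE).

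The remaining 4 leading lower genes were Asl, Chuk, Cnn2 and Plaur. Asl, argininosuccinate lyase of the urea cycle and arginine synthesis, differed by -0.73 ± 0.17 (SE), and Chuk, the IKK-alpha kinase of NF-kappaB signalling, by -0.71 ± 0.16 (SE). Cnn2, an actin-binding calponin, differed by -1.03 ± 0.21 (SE). Plaur, the urokinase receptor, was at 0.503, 1.96 and 1.83 in control chow, 0.495 and 0.0592 in control HFD, 5.08, 4.07, 3.80 and 5.05 in mutant chow and 1.01, 0.0645 and 0.427 in the libraries labelled mutant HFD, so its log2 difference of -1.40 ± 0.28 (SE) rested on values of a few units, with control chow and control HFD only 0.503 and 0.495 at their nearest. Over 26 alternatives, C4b, Sertad1, Cnn2 and Ezh2 were shared genes in 26, and the other 20 of the 24 leading genes in 23 to 25. These counts are no independent support, since the genes were chosen for separated diets. Only quantile normalisation and rescaling could reorder libraries within a gene, and each kept 72 of the 118 shared genes. Under the other alternatives a gene could drop out only through its p or the filter.

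Protein-coding shared genes higher on HFD were led by a nuclear receptor, a glycosyltransferase-like gene, a kinase and a synaptic vesicle protein. Left out of this order were the processed pseudogenes Gm14219, with the largest log2 difference among shared genes (2.73), and Gm14542. Nr4a2, an orphan nuclear receptor that also acts as an immediate early gene (chr2:57106830-57124003, minus strand), measured 2.27, 1.41 and 2.84 in control chow, 5.20 and 3.20 in control HFD, 1.77, 0.982, 2.32 and 0.751 in mutant chow and 13.2, 5.19 and 11.1 in the libraries labelled mutant HFD. All 5 HFD libraries were above all 7 chow libraries, as in 22 genes of all those tested (0.139%). Mutants differed by 2.10 and controls by 0.71 on the log2 scale, with a mean of 1.41 ± 0.30 (SE), an unadjusted p of 0.000426 and an adjusted p of 0.448 (limma, Benjamini-Hochberg). The interaction had an unadjusted p of 0.036 and an adjusted p of 0.999 (limma, Benjamini-Hochberg).

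Gtdc1, a glycosyltransferase-like gene (chr2:44564412-44927657, minus strand), was at 24, 24.3 and 25 in control chow, 41.9 and 44.2 in control HFD, 13.8, 12.7, 17.8 and 17 in mutant chow and 19.4, 25.2 and 27.2 in the libraries labelled mutant HFD. Controls were above mutants on either diet, so the diets separate only within a genotype, and the log2 difference was 0.70 ± 0.15 (SE). Cdkl2, a kinase related to cyclin-dependent kinases (chr5:92006074-92043883, minus strand), had 28.8, 27.8 and 26.3 in control chow, 40.7 and 39.3 in control HFD, 28, 25.2, 28.2 and 25.6 in mutant chow and 47.8, 47.7 and 33 in the libraries labelled mutant HFD. Chow libraries covered a narrow range in both genotypes, and the lowest HFD library was still above it, for a difference of 0.58 ± 0.13 (SE). Synpr, which encodes the synaptic vesicle protein synaptoporin (chr14:13284780-13616340, plus strand), had 21, 12.6 and 21.8 in control chow, 33.7 and 40.9 in control HFD, 25.3, 19.9, 23.4 and 25 in mutant chow and 28.9, 27.2 and 30.4 in the libraries labelled mutant HFD, with a difference of 0.65 ± 0.16 (SE) that was 1.01 in controls and 0.30 in mutants.

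Other leading higher genes were Grm8, an inhibitory metabotropic glutamate receptor, at 0.81 ± 0.23 (SE), and Prkar2b, a regulatory subunit of protein kinase A, at 0.37 ± 0.11 (SE) on the log2 scale. Dclk2, a doublecortin-like kinase, differed by 0.42 ± 0.13 (SE), Dtd2, a D-aminoacyl-tRNA deacylase, by 0.60 ± 0.19 (SE), and Sidt1, a transmembrane protein of RNA transport, by 0.72 ± 0.21 (SE). Irx5, a homeobox transcription factor, was low at 1.52, 0.910 and 0.810 in control chow, 5.43 and 1.84 in control HFD, 1.94, 3.27, 1.46 and 1.54 in mutant chow and 3.64, 4.47 and 5.30 in the libraries labelled mutant HFD. Samd12 and Rassf6 each had 1 mutant chow library listed at 0, so only their values are given. Samd12 read 4.55, 3.19 and 4.87 in control chow, 8.32 and 6.61 in control HFD, 2.38, 1.61, 0 and 1.08 in mutant chow and 3.41, 5.09 and 6.76 in the libraries labelled mutant HFD, and Rassf6 read 2.10, 0.970 and 0.790 in control chow, 3.26 and 3.73 in control HFD, 0.592, 1.30, 0.202 and 0 in mutant chow and 1.59, 1.40 and 1.49 in the libraries labelled mutant HFD. Fewer cells of a type and less RNA per cell cannot be told apart in such bulk tissue, for these genes or any below.

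**Figure D3:**
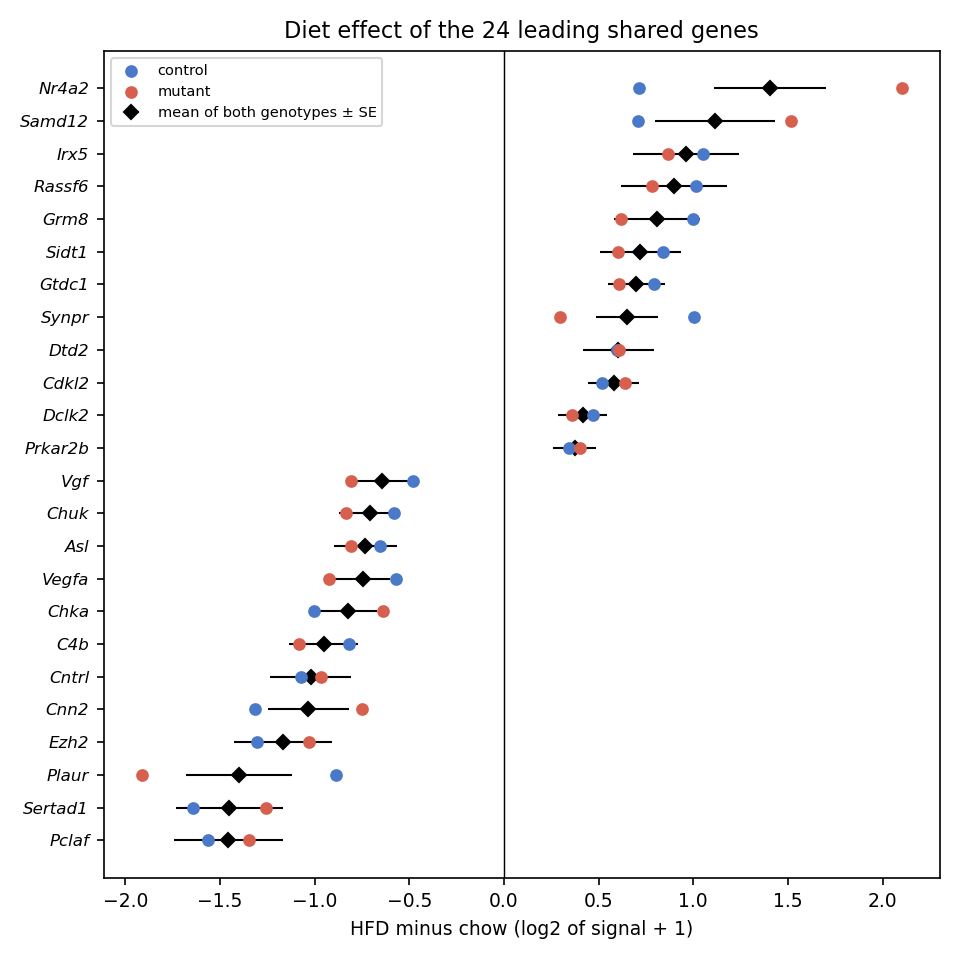
Diet effect (HFD minus chow, log2 of signal + 1, horizontal axis) of the 24 leading shared genes, with the mean over genotypes as a diamond with its SE and the control and mutant effects as blue and red points. Both genotype points lie on the same side of 0 for all 24, as their choice required, and Nr4a2 (0.71 and 2.10) and Plaur (-0.89 and -1.91) have widely spaced pairs.

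Genes of interferon response and antigen presentation were the list with most members lower on HFD at an unadjusted p under 0.05. Of 25 members tested, 14 were lower and 0 higher at that threshold, where 3.69% of all genes were lower, and 21 were lower in both genotypes, where 29.2% of all genes were. The median log2 difference was -0.68, -0.36 in controls and -0.77 in mutants, against -0.02 over all genes. Each library's summed signal over the list was 1037 to 2428 in control chow and 817 to 1517 in control HFD, which overlap, and 1677 to 3223 in mutant chow and 1074 to 1204 in the libraries labelled mutant HFD, which do not. Without control HFD replicate 1 only 5 members were lower at that threshold (median -0.45), and without both chow libraries that stand apart 10 were (median -0.57).

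Antigen presentation led the list. Cd74, the invariant chain of MHC class II, had a signal of 41.6, 201 and 123 in control chow, 24.3 and 67.7 in control HFD, 289.9, 119, 520.4 and 94.3 in mutant chow and 44.9, 58.6 and 50.2 in the libraries labelled mutant HFD. Control libraries of the diets overlapped, and all mutant chow libraries were above all those labelled mutant HFD, with mutant chow replicate 3 highest. The log2 difference was -1.63 ± 0.48 (SE), with an unadjusted p of 0.00469 and an adjusted p of 0.823 (limma, Benjamini-Hochberg). MHC class II chains H2-Aa and H2-Ab1 differed by -1.49 and -1.51, and class I heavy chains H2-K1 and H2-D1 by -0.91 and -0.68. H2-Aa read 14.7, 57 and 64.9 in control chow, 8.32 and 33.2 in control HFD, 128, 51.8, 166 and 36 in mutant chow and 22.5, 23 and 18.7 in the libraries labelled mutant HFD. Reads of H2 genes can be split among near-identical family members. B2m, the light chain of class I, gave -0.53 with an unadjusted p of 0.0568.

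Immunoproteasome subunits cut the peptides that class I presents, and Psmb9 and Psmb8 differed by -0.99 and -0.78. Psmb9 read 8.33, 20.8 and 23.8 in control chow, 5.58 and 12.5 in control HFD, 15.8, 16.6, 26.7 and 14.1 in mutant chow and 9.90, 7.30 and 6.07 in the libraries labelled mutant HFD, overlapping between diets in controls and not in mutants, and it overlaps Tap1 on the opposite strand. Tap1, the transporter of those peptides, had 0.10 (unadjusted p of 0.734), and its partner Tapbp -0.15 (unadjusted p of 0.444). Irf9, the DNA-binding subunit of the ISGF3 complex of interferon signalling, and Rtp4, an interferon-induced receptor transporter, were shared genes. Irf9 read 25, 21.9 and 35.4 in control chow, 16.6 and 20.1 in control HFD, 36.8, 24.8, 41.5 and 32.6 in mutant chow and 18.7, 16.3 and 17.8 in the libraries labelled mutant HFD, and every HFD library lay below every chow library, for a log2 difference of -0.71 ± 0.17 (SE). Irf9 overlaps Rnf31 on the same strand, so reads may be shared between them. Rtp4 read 12, 8.64 and 24.6 in control chow, 3.30 and 7.71 in control HFD, 10.9, 16.6, 11.2 and 16.1 in mutant chow and 7.58, 5.69 and 10.3 in the libraries labelled mutant HFD, for -1.0 ± 0.29 (SE), and it overlaps Masp1 on the opposite strand. Among other members past the unadjusted threshold, Bst2 had -0.77, Ifitm3 -0.84, Oasl2 -1.10 and Ifi27 -0.57.

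Members that did not pass included the Ifit genes. Ifit1, Ifit2 and Ifit3, inhibitors of viral RNA translation, had log2 differences of -0.39, -0.07 and -0.07, Isg15, a ubiquitin-like modifier, -0.15, and Usp18, which removes it, -0.44, with unadjusted p from 0.132 to 0.812. Ifit3 read 17.3, 15.4 and 18.5 in control chow, 19 and 30.7 in control HFD, 20.1, 20.3, 60.2 and 18.4 in mutant chow and 13, 16.4 and 21.2 in the libraries labelled mutant HFD, and its effect was 0.48 in controls and -0.62 in mutants.

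Interferon response elements, the sites bound by ISGF3 and interferon regulatory factors, hold the letters GAAANNGAAA on either strand, where N is any base. RefSeq promoters (GRCm38.p6, 250 bases before the start, matched by symbol) were available for 19 of the 25 genes, and 7 of them (36.8%) held the letters, against 936 of 27025 genes (3.46%) and 978 of 32851 promoters (2.98%) in all. The motif genes were Bst2, B2m, Ifit1, Oas1a, Stat2, Isg15 and Ifit3, of which only Bst2 was lower at an unadjusted p under 0.05. Put the other way, the letters were in 1 of the 9 genes with a promoter past that threshold and in 6 of the other 10. Windows of 4 of them are shown with the matches in capitals (TTTCNNTTTC is the same motif on the other strand), to set the member that was lower beside 3 that did not pass.
Bst2 (chr8:71537562-71537627, minus strand): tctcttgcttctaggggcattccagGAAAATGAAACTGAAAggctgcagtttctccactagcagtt
Isg15 (chr4:156200850-156200921, minus strand): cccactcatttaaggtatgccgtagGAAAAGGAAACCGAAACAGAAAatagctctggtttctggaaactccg
Ifit1 (chr19:34640760-34640838, plus strand): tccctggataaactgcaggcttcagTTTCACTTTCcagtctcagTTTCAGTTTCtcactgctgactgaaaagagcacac
Ifit3 (chr19:34583348-34583441, plus strand): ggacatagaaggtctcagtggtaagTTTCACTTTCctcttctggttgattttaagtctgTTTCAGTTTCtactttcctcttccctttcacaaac
Overlapping matches run together in Bst2 and Isg15. A match describes the letters and is no binding site by itself, and no match says only that the letters are not in that window. Among shared genes, the letters were in 4 of 62 lower (6.45%) and 4 of 28 higher genes with a promoter (14.3%).

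**Figure D4:**
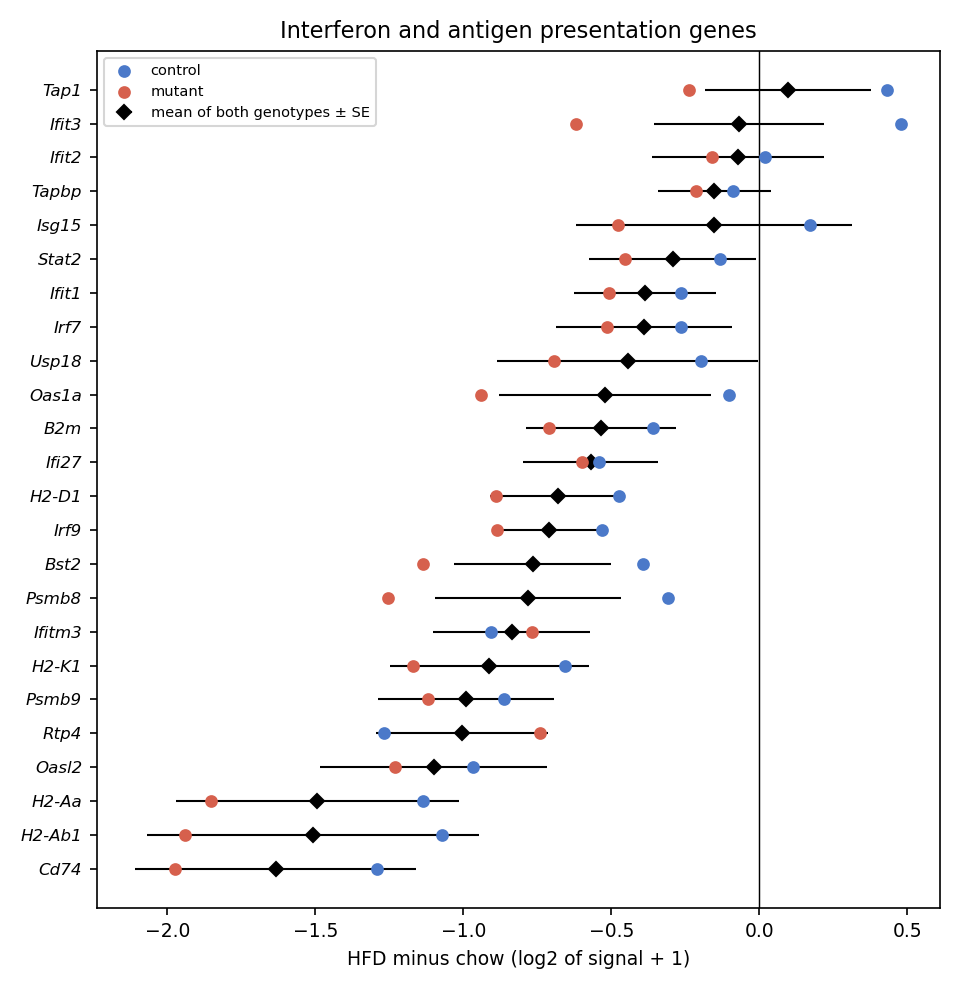
Diet effect (HFD minus chow, log2 of signal + 1, horizontal axis) of 24 of the 25 interferon and antigen presentation genes, with the mean over genotypes as a diamond with its SE and the control and mutant effects as blue and red points. Class II genes lie lowest (Cd74 at -1.63), and Ifit3, Ifit2 and Tap1 lie near 0, with Tap1 the only mean above it (0.10).

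Microglial markers and reactive glia genes followed with 5 lower members each. Of 14 microglial markers, 5 were lower and 0 higher at an unadjusted p under 0.05, against 3.69% and 1.6% of all genes, with a median of -0.30 that was -0.07 in controls and -0.69 in mutants. Ctss, the lysosomal protease cathepsin S, read 76.7, 114 and 131 in control chow, 81.5 and 97.6 in control HFD, 200.2, 185, 167 and 173 in mutant chow and 81.9, 81.7 and 111 in the libraries labelled mutant HFD, so that mutant chow stood above the other 3 groups, which overlapped, and the mean log2 difference was -0.61 ± 0.15 (SE). The complement C1q chains C1qa and C1qc, which microglia make, differed by -0.66 and -0.63. They had -0.37 and -0.30 in controls, where the diets overlapped, and -0.96 and -0.95 in mutants. Cd68, a lysosomal protein of phagocytes, differed by -0.62. Csf1r, the receptor on which microglial survival depends, was a shared gene at 35.3, 37.3 and 35.8 in control chow, 32.5 and 33.3 in control HFD, 44.4, 49.2, 59 and 48.6 in mutant chow and 24.5, 33.8 and 35 in the libraries labelled mutant HFD, although the control groups lay only a few units apart. Markers of microglial identity did not pass, with Tmem119 at -0.16, Cx3cr1 at -0.18 and P2ry12 at 0.39. All 14 markers were above 0 in every library, and their summed signal was 539 to 812 in control chow, 582 to 718 in control HFD, 1011 to 1039.7 in mutant chow and 578 to 707 in the libraries labelled mutant HFD. Microglial marker signal was thus highest in mutant chow. The interferon and antigen presentation sum peaked in mutant chow replicate 3 (3223), while control chow replicate 2 (2428) was above the other mutant chow libraries. The part of microglial signal in the interferon result was not tested.

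Reactive glia genes gave 5 lower and 0 higher of 14 (3.69% and 1.6% of all genes), with a median of -0.31, and 3 lower without control HFD replicate 1. C4b was first, and Osmr, the oncostatin M receptor and also a shared gene, read 1.65, 2.56 and 3.56 in control chow, 0.855 and 0.833 in control HFD, 2.03, 2.03, 8.64 and 3.29 in mutant chow and 1.03, 0.848 and 1.61 in the libraries labelled mutant HFD. Vim, an intermediate filament, differed by -0.49, and Cp, the copper protein ceruloplasmin, by -0.77 (-0.07 in controls and -1.48 in mutants). Lcn2, a secreted iron-carrier protein of reactive astrocytes, was listed at 0 in 2 HFD libraries and read 0.926, 1.30 and 1.57 in control chow, 0.406 and 0 in control HFD, 12.6, 4.05, 4.41 and 2.04 in mutant chow and 0, 0.532 and 2.82 in the libraries labelled mutant HFD. Gfap, the filament most used to mark astrocyte reactivity, differed by -0.19 (unadjusted p of 0.421), and none of the 9 astrocyte markers passed. Inflammation genes gave 2 lower and 0 higher of 15 (median -0.36), which were Icam1, a shared gene and leukocyte adhesion molecule, at -1.04 ± 0.27 (SE), and the kinase Ikbke at -0.96 ± 0.39 (SE).

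A further 5 immune genes were picked out among the shared genes after their values were seen. Fcgr3, an activating receptor for antibodies, read 7.91, 15.9 and 13.4 in control chow, 6.28 and 4.71 in control HFD, 34.4, 25.5, 22.9 and 13.4 in mutant chow and 9.60, 10.2 and 8.95 in the libraries labelled mutant HFD, for -1.09 ± 0.25 (SE), with near-identical family members that may share its reads. Tlr3, a sensor of double-stranded RNA, had -0.79 ± 0.21 (SE), and Parp14, an interferon-induced ADP-ribosyltransferase, -0.62 ± 0.24 (SE). C1ra, a protease of the first complement component, had -1.15 ± 0.36 (SE), and Cd40, a costimulatory receptor on antigen-presenting cells, -0.52 ± 0.22 (SE) at signals under 2 in every library.

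Of 14 feeding peptides, 2 were lower and 0 higher at an unadjusted p under 0.05 (3.69% and 1.6% of all genes; median -0.20), and 11 of 14 had a mean below 0, as did 53.5% of all genes. Npy, the hunger peptide, read 608, 2183 and 849 in control chow, 227 and 1315 in control HFD, 802, 1045, 1378 and 1479 in mutant chow and 924, 285 and 382 in the libraries labelled mutant HFD. Control groups overlapped widely, with control HFD replicate 1 lowest of all 12, and mutant groups overlapped through 1 HFD library. The mean log2 difference was -1.11 ± 0.46 (SE), with an unadjusted p of 0.0318 and an adjusted p of 0.886 (limma, Benjamini-Hochberg), and it ran from -1.74 to -0.48 over the alternatives. Agrp, made by the same neurons, read 168, 787 and 367 in control chow, 65.9 and 366 in control HFD, 291, 236, 282 and 446 in mutant chow and 385, 115 and 195 in the libraries labelled mutant HFD, with a difference of -0.89 ± 0.47 (SE) and an unadjusted p of 0.0801. Agrp overlaps 2 genes on the opposite strand in the annotation. Pomc, the satiety precursor, read 2147, 2410.1 and 1211 in control chow, 1096 and 2645 in control HFD, 1009, 1986, 4249 and 2739.7 in mutant chow and 1555, 1676 and 1665 in the libraries labelled mutant HFD, for -0.27 ± 0.34 (SE), and its diet groups overlapped in both genotypes. Nts, the gene of neurotensin, was at 30.3, 20.1 and 34.3 in control chow, 23.1 and 17 in control HFD, 42.7, 45.9, 72 and 64.6 in mutant chow and 43.2, 29.9 and 37.1 in the libraries labelled mutant HFD, a difference of -0.52 ± 0.19 (SE) with some overlap in each genotype. The count of lower feeding peptides was 0 without mutant HFD replicate 2, 4 without control HFD replicate 2, and 1 without any 1 of control chow replicate 2, mutant chow replicates 3 and 4, and mutant HFD replicate 3.

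Of 13 ARC neuron markers, 2 were lower and 0 higher (3.69% and 1.6% of all genes), with a median of -0.27. They were Npy and Tbx3, a transcription factor of peptide neurons, at -0.48 ± 0.20 (SE). The count of lower markers was 0 without control HFD replicate 1 and 5 without control HFD replicate 2. Feeding receptors had 1 higher and 0 lower of 16. Htr2c, the serotonin receptor through which several appetite suppressants act, read 9.95, 2.60 and 5.85 in control chow, 19.1 and 5.45 in control HFD, 7.66, 4.53, 4.0 and 4.88 in mutant chow and 10.3, 10.1 and 8.18 in the libraries labelled mutant HFD, for 0.80 ± 0.34 (SE), and the control groups overlapped. Lepr, the leptin receptor, differed by -0.27 (unadjusted p of 0.48), and Mc4r, the melanocortin receptor, did not pass and was listed at 0 in 2 mutant chow libraries. Leptin and insulin signalling genes gave 0 of 22 in either direction (median -0.01). Among them Socs3, a feedback inhibitor that leptin induces, had -0.09 ± 0.46 (SE), 0.54 in controls and -0.72 in mutants. Neuropeptide processing gave 1 lower, Vgf, and 1 higher, the granule protein Scg3, of 12. Scg3 was a shared gene at 277, 254 and 227 in control chow, 308 and 307 in control HFD, 212, 269, 246 and 248 in mutant chow and 279, 289.6 and 288 in the libraries labelled mutant HFD, a difference of 0.26 ± 0.10 (SE).

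**Figure D5:**
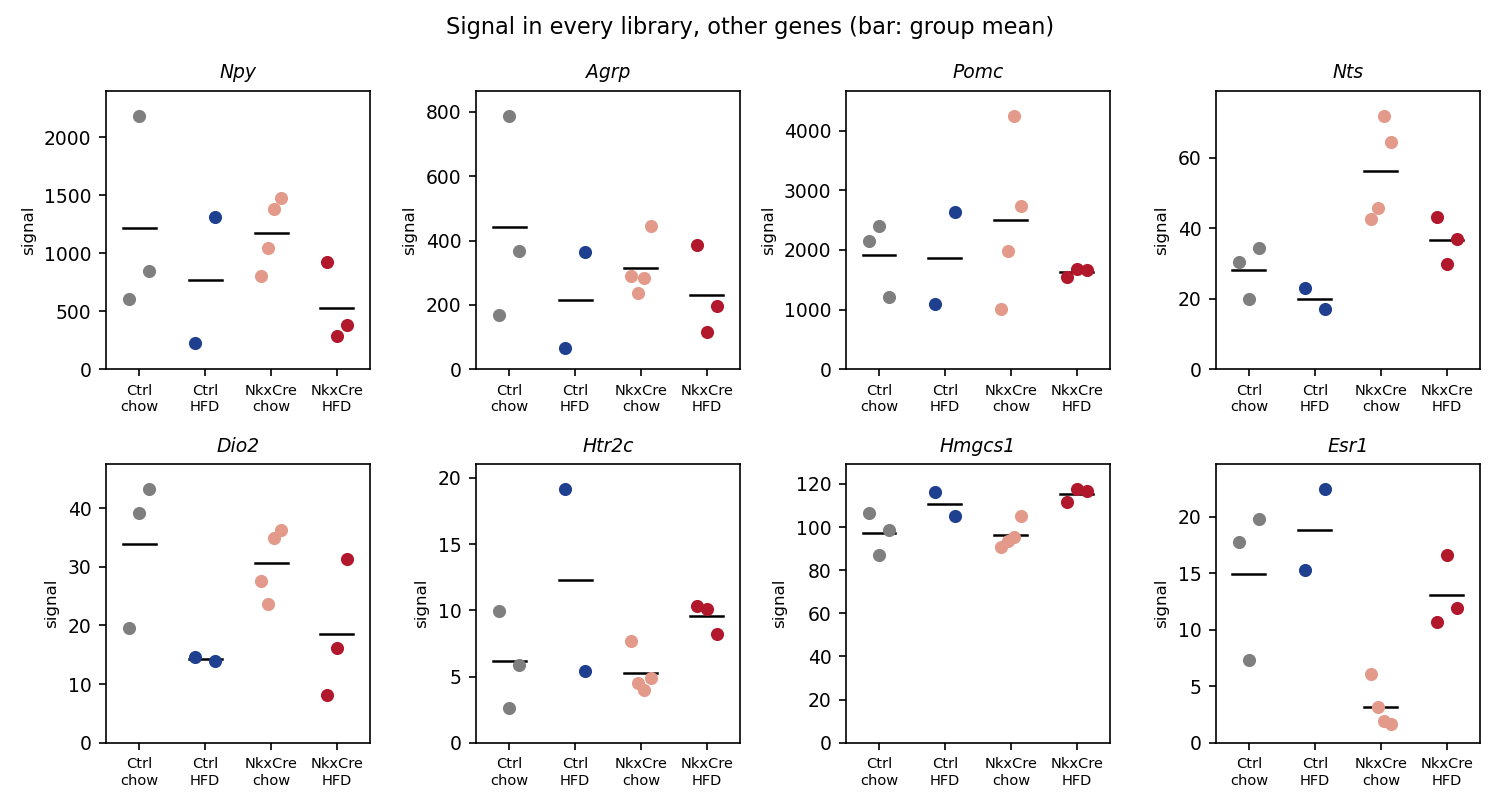
Signal (vertical axis, linear from 0) in each of the 12 libraries, 1 point per library, in control chow, control HFD, mutant chow and mutant HFD by label, with a bar at the group mean. Npy, Agrp and Pomc overlap between diets in controls, with Npy from 227 to 1315 in the 2 control HFD libraries. The libraries labelled mutant HFD have Esr1 signals of 10.7 to 16.6, inside the control range.

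Tanycyte markers had 3 lower and 0 higher of 9, against 3.69% and 1.6% of all genes, and all 9 means were below 0 (median -0.41), as were 53.5% over all genes. Without control HFD replicate 1 only 1 was lower, and without control HFD replicate 2 there were 6. Dio2, the deiodinase with which tanycytes activate thyroid hormone (chr12:90724552-90738438, minus strand), read 19.5, 39.2 and 43.2 in control chow, 14.6 and 14 in control HFD, 27.6, 23.6, 34.9 and 36.3 in mutant chow and 8.13, 16.1 and 31.3 in the libraries labelled mutant HFD. Both control HFD libraries were below all 3 control chow libraries, where 14.1% of all genes separated in 1 direction or the other. In mutants, 1 HFD library lay among the chow libraries. The mean log2 difference was -0.99 ± 0.30 (SE). Lhx2, a transcription factor of tanycytes, differed by -0.46 ± 0.17 (SE) and Crym, a thyroid hormone-binding protein, by -0.56 ± 0.23 (SE). Summed tanycyte signal was 541 to 685 in control chow, 359 to 714 in control HFD, 460.3 to 783 in mutant chow and 364 to 476 in the libraries labelled mutant HFD.

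Neuronal genes had means above 0, and few passed. All 8 pan-neuronal markers were higher in both genotypes, where 25.3% of all genes were, with a median of 0.20 and 0 past the unadjusted threshold. Of 25 GABA and glutamate receptor subunits, 20 were higher in both genotypes and 0 lower in both (median 0.22). At an unadjusted p under 0.05, 2 were higher, as were 1.6% of all genes. Gabbr2, a GABA-B subunit, was among the latter at 0.44 ± 0.20 (SE). The count was 9 without control chow replicate 1, 8 without control HFD replicate 2, and 0 without control chow replicate 2, control HFD replicate 1 or mutant HFD replicate 2. Without control HFD replicate 1, 2 of the 8 pan-neuronal means were below 0 (median 0.05), as were 4 of the 25 receptor means (median 0.14). Summed neuronal signal was 1175 to 1507 in control chow, and 2007 and 1169.6 in control HFD replicates 1 and 2. It was 1291 to 1435 in mutant chow and 1509 to 1668 in the libraries labelled mutant HFD. In controls the 2 HFD libraries thus lay on either side of all chow libraries. In mutants neuronal marker signal was higher on HFD alongside these receptors, and its part was not tested.

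Few lipid genes passed the unadjusted threshold, at which 3.69% of all genes were lower and 1.6% higher. Sterol synthesis genes had 2 higher and 0 lower of 24, with 14 higher in both genotypes (25.3% of all genes) and a median of 0.18. Hmgcs1, an early enzyme of the pathway, read 106, 87.1 and 98.5 in control chow, 116 and 105 in control HFD, 90.8, 93.7, 95.2 and 105 in mutant chow and 112, 117 and 117 in the libraries labelled mutant HFD, for 0.22 ± 0.10 (SE). The sterol count ran from 0 to 3 when 1 library was left out. Fatty acid synthesis had 0 of 16 in either direction, and fatty acid use and PPAR targets 1 lower of 28, Plin4, a lipid droplet protein, at -0.82 ± 0.32 (SE).

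Stress and hormone lists had few members past the unadjusted threshold, which 3.69% of all genes passed as lower and 1.6% as higher. Heat shock genes had 3 lower and 0 higher of 13, Hspa1a at -0.66, Hspa1b at -0.57 and Hspb1 at -0.86. Hspa1a and Hspa1b are a near-identical pair that can share reads. They differed by -1.16 and -0.94 in controls and by -0.17 and -0.21 in mutants. The count of lower heat shock genes was 0 without any 1 of control chow replicate 2, mutant chow replicates 1 and 2, and mutant HFD replicate 2. Genes of the unfolded protein response had 2 lower and 0 higher of 23, the stress transcription factors Atf3 at -0.92 ± 0.32 (SE) and Ddit3 at -0.47 ± 0.20 (SE), with 7 lower without control HFD replicate 2 and 0 without control HFD replicate 1. Glucocorticoid-responsive genes had 4 lower and 0 higher of 17, Cdkn1a at -0.80, Map3k6 at -1.21, Sult1a1 at -0.96 and Plin4, with 0 lower without control HFD replicate 2, 1 without control chow replicate 3, and 2 without control chow replicate 2 or mutant HFD replicate 3. In the growth hormone axis 2 of 11 were lower, Igfbp3 at -0.59 and Igf1 at -0.87, and Igf1 had 0.59 in controls and -2.33 in mutants. Immediate early genes had 1 higher, Nr4a2, of 21, clock genes 0 of 20, and steroid receptor genes 1 higher of 11, which was Esr1. This is the deleted gene, with 0.40 in controls and 1.84 in mutants. Its difference rests mainly on the libraries labelled mutant HFD, whose Esr1 signal goes against their label.

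Vessel and matrix genes had a few lower members at an unadjusted p under 0.05 (3.69% lower and 1.6% higher over all genes). Of 13 endothelial and mural markers 2 were lower, Rgs5 of pericytes at -0.62 and Ly6c1 at -0.56 (-0.95 in controls and -0.17 in mutants). Of 7 leptomeningeal markers 1 was lower, Dcn at -0.94. Matrix genes had 3 lower and 0 higher of 24, and the count of lower genes was 1 without mutant HFD replicate 3. Col4a1 of the basement membrane differed by -0.77 ± 0.22 (SE), -0.32 in controls and -1.22 in mutants. Fn1 differed by -0.69 ± 0.27 (SE) and Col6a1 by -0.66 ± 0.26 (SE). Col4a1 overlaps Col4a2 on the opposite strand. Oligodendrocyte precursors had 1 higher of 7, Pdgfra at 0.43 ± 0.18 (SE), mature oligodendrocytes 0 of 12, with medians of 0.35 in controls and -0.63 in mutants, and myelin lipid synthesis 1 higher of 8, which was Hmgcs1.

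Respiration and translation genes did not follow the diet in both genotypes. At the unadjusted threshold, nuclear OXPHOS and ribosomal genes were lower less often than the 3.69% of all genes. Nuclear OXPHOS genes had 2 lower of 81, the muscle-type subunits Cox6a2 (-2.85 in controls, 0.24 in mutants) and Cox7a1, which was listed at 0 in 2 HFD libraries, with list medians of -0.25 in controls and 0.20 in mutants. Ribosomal protein genes had 1 lower of 80, Rps18 at 15.3, 29.4 and 19.6 in control chow, 4.78 and 3.64 in control HFD, 19.1, 15.2, 47.9 and 19.4 in mutant chow and 10.7, 16.5 and 0.685 in the libraries labelled mutant HFD, with list medians of -0.51 in controls and 0.10 in mutants, and Rps18 has pseudogenes that can share its reads. Mitochondrially encoded subunits (13 genes), glycolysis (24) and the markers of ependyma, choroid plexus, pituitary, blood, the ventromedial and suprachiasmatic nuclei, the paraventricular and lateral hypothalamus, and thalamus and cortex had 0 members past the unadjusted threshold in either direction. Several of these marker sums still differed widely between libraries, as given above.

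In contrast to the shared genes, Penk, the enkephalin precursor, Ccn3, a secreted matricellular protein, and Fst, the activin antagonist follistatin, entered the mean mainly through mutants. They were named after their values were seen, and Ccn3 had the lowest unadjusted p of the mean diet effect (4.57e-05). Ccn3 read 7.83, 10 and 11.9 in control chow, 7.13 and 14.3 in control HFD, 139, 46.5, 106 and 83.5 in mutant chow and 9.01, 7.17 and 4.65 in the libraries labelled mutant HFD, so only mutant chow stood apart. Fst read 1.48, 1.45 and 0.552 in control chow, 0.842 and 1.68 in control HFD, 22.3, 9.19, 33.2 and 13.3 in mutant chow and 1.14, 1.53 and 1.19 in the libraries labelled mutant HFD, in the same pattern. Penk read 232, 339.8 and 319 in control chow, 181 and 244 in control HFD, 659, 568, 938 and 847 in mutant chow and 296, 332 and 193 in the libraries labelled mutant HFD, and its log2 difference was -0.48 in controls and -1.47 in mutants. None of the 3 is a shared gene, since the control diets overlapped.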

How the data were processed

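ARC RNA was sequenced by the authors after a NEBNext Ultra II preparation, and reads were assigned with kallisto to the mm10 transcriptome and tested with sleuth (submitters' processing notes and the study's methods; versions, annotation release, gene filter and strand use are not given in the sources used here). The deposited table holds a gene-level abundance signal for 16640 genes whose exact scaling between libraries is not stated, so the depth per library is unknown and no counting error is given. Of the genes, 16635 matched GENCODE M21, and 0 columns were left unmapped. Without counts, edgeR and DESeq2 were not applicable.

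Groups came from the sample labels. The signal was analysed as log2(signal + 1) with limma 3.58.1 (R 4.3.3, mean-variance trend, 1 mean per group, two-sided, Benjamini-Hochberg) over 15801 genes in 4 contrasts. The fit was run on simulated data with independent normal noise, without the differences in marker and column sums seen between these libraries. Log2 differences of low genes are understated by the pseudocount. Named genes were the 12 shared protein-coding genes with the smallest p in each direction, up to 4 genes per list by p (159 over 41 lists, of which the 50 with an unadjusted p under 0.05 are described where they can be reported and the rest enter as counts), Esr1, and 11 genes chosen after their values were seen; other list members are given where a count turns on them. Of 82 named genes, 14 overlap a protein-coding gene on the opposite strand, and Irf9 overlaps Rnf31 on the same strand. Members and lists were chosen with earlier results of these data known. Some genes of the table were tested but are not reported here. Alternatives changed scaling, pseudocount, filter, trend, weights, model, covariates, replicate block, fold threshold and libraries.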

Additional observations from a re-analysis of the deposited data

Results flagged for a closer look

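In 4 of the 82 groups of 4 libraries tested, 1 per named gene, the highest mutant chow library stood apart from the other 3 by Dixon's test, and chance alone does this in about 1 in 20 groups. The gap to the nearest library, as a share of the group's range, was 0.968 for Prkar2b, with mutant chow at 40.8, 40.8, 40.6 and 47.5, and 0.92 for Ezh2, at 16.4, 17, 39.4 and 15. It was 0.872 for Rps18, at 19.1, 15.2, 47.9 and 19.4, and 0.850 for C1qc, at 86.5, 97.7, 88.1 and 86.5. For Ezh2 and Rps18 the high library was mutant chow replicate 3, which also had the most genes listed at 0. Prkar2b was higher and the other 3 lower on HFD.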

How the results depend on the processing

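No gene passed an adjusted p of 0.05 for the mean diet effect under any of 26 alternatives (limma, Benjamini-Hochberg), and the lowest adjusted p in any was 0.0772, with a pseudocount of 0.1. The labels give no replicate number, but a number in the column names recurs across groups. Deviations from the group means correlated above 0.1 in 3 of 15 same-numbered pairs (from -0.185 to 0.308), and 6 of 12 libraries correlated best with one of their own number. Control HFD has only 2 libraries, whose deviations mirror each other by construction, so their correlations come in opposite pairs. Whether the shared number marks a batch was not tested. With the number as a replicate block, chosen after seeing the data, the count in mutants was 0. Shared genes were then 92 (91 of them among the 118), of which 24 were higher, and interferon and antigen presentation genes 14. The 118 shared genes were 14 under a 1.5-fold threshold, and from 120 to 316 when 1 library was left out, with 301 without control chow replicate 1, 316 without control HFD replicate 2 and 181 without mutant chow replicate 2; fewer libraries make an overlap less likely by construction. Leaving out both chow libraries that stand apart, a choice made after seeing the data, gave 234 shared genes, of which 100 were among the 118, and 5 genes past the adjusted threshold in mutants. The 14 interferon and antigen presentation genes were 2 under the 1.5-fold threshold and 5 to 16 when 1 library was left out. The count in mutants of 3 became 9 with array weights and 0 to 4 when 1 library was left out, with 1 without mutant HFD replicate 1 and 0 without mutant HFD replicate 2 or 3. In controls it became 1 with the first residual component as a covariate, and 0 when any 1 library was left out. The interaction count of 0 became 1 with that covariate, 1 with a pseudocount of 0.1, and 0 to 1 when 1 library was left out (1 without control chow replicate 3). Genes at an unadjusted p under 0.05 were 50 under the 1.5-fold threshold, 1370 without control chow replicate 1 and 1357 without control HFD replicate 2. Among log2 differences of named genes, 1 of 2116 values had another sign, Pomc at 0.045 without control HFD replicate 1, with -0.59 to 0.045 over single libraries left out. The cause of these changes was not tested, and unknown depth limits statements on genes of low signal.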
